A study of Mus musculus with 3 samples.

Results

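The 10 genes described here form the core of the mammalian circadian clock, with 1 of its direct outputs (Dbp), and were measured in primary epidermal keratinocytes of neonatal ICR mice. They are Arntl, Clock, Per1, Per2, Per3, Cry1, Cry2, Nr1d1, Nr1d2 and Dbp. A probe set was taken when the platform annotation gave it exactly 1 gene symbol and that symbol was one of these, which selected 23 probe sets for the 10 genes out of the 18193 genes with such a probe set. There was 1 WT array and there were 2 arrays of RASSF9-/- keratinocytes, each from a culture plate of its own, called RASSF9-/- array 1 and array 2. The RASSF9-/- mice are homozygous for the insertion of a viral LMP1 transgene, with its own upstream promoter, which removed part of an intron of the Rassf9 gene, and all of them come from a single transgenic line. Culture was in serum-free keratinocyte medium, with 24 h named by the deposited description of WT and 48 h by those of RASSF9-/-, while the methods give the same culture time for all samples. If the descriptions hold, genotype and culture time cannot be told apart. The time of day at which the cells were plated or lysed is not given in the sources used here. The array labels carry 2 dates, one shared by WT and RASSF9-/- array 1 and the other belonging to RASSF9-/- array 2.

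The clock is a transcriptional loop that runs in nearly every cell, skin keratinocytes included. The proteins of Arntl (also called BMAL1) and Clock pair up and activate genes through a DNA element named the E-box, among them the Per and Cry genes, whose proteins then repress that pair. A further loop is formed by the nuclear receptors REV-ERBα (Nr1d1) and REV-ERBβ (Nr1d2), which repress Arntl through an element they share with the activating ROR receptors. The products of Dbp and related genes act through one more element, the D-box. Because cells in culture can drift out of phase with each other, and because a single harvest shows 1 point of the cycle, a level on an array is a mixture over phases.

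Promoters bearing these elements are shown for the 2 genes whose RASSF9-/- arrays both differed from WT by more than they differed from each other, Arntl and Cry1, and for Per1, whose signal was almost the same on every array. The sequences are from RefSeq, build GRCm38.p6, from 250 bases before to 50 bases after a transcription start, read 5′ to 3′ on the strand of the gene. Arntl has 2 listed starts, and the window shown belongs to the second, at chr7:113207261-113207560 on the plus strand. Cry1 is at chr10:85185005-85185304 on the minus strand, and the first of 2 listed Per1 starts gives chr11:69098699-69098998 on the plus strand. Capitals mark matches on either strand to 3 of the searched elements. The E-box was searched as CACGTG. The non-canonical E-box was searched as CACGTT, which appears as its reverse complement in Cry1. The element shared by REV-ERB and ROR was searched as TAGGTCA, and no 2 matches overlap in these windows.
Arntl: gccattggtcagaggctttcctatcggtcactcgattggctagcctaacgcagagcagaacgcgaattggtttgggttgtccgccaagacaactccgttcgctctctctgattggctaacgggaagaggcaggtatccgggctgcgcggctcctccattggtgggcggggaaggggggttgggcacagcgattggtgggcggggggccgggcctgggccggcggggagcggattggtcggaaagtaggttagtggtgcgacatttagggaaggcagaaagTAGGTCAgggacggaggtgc
Cry1: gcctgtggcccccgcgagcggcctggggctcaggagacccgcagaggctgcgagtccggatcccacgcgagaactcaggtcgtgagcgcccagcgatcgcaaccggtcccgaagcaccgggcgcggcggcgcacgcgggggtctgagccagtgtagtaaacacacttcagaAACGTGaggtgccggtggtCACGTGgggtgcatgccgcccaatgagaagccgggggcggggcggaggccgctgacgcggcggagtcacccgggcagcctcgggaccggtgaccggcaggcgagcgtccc
Per1: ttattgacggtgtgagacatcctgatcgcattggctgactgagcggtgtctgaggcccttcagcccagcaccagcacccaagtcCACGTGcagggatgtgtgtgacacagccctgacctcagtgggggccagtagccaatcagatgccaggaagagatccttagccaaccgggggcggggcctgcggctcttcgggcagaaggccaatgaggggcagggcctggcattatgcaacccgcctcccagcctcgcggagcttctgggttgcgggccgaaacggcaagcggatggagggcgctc

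The RefSeq table held promoters for 9 of the 10 genes, 13 windows in all, and Per2 was the gene without an entry. Matches were found for 6 of the 9. The REV-ERB/ROR letters of Arntl started 30 bases downstream of the start, and those letters occur in 2.61% of the 32851 promoters of the table. Cry1 held an E-box 60 bases and a non-canonical E-box 79 bases upstream of its start, letters found in 7.15% and 4.68% of promoters. The E-box of Per1 lay 166 bases upstream, and non-canonical E-boxes lay 166 bases upstream in Cry2 and 28 bases upstream in Nr1d1. Per3 held the D-box letters TTATGTAA 205 and 158 bases upstream, present in 0.938% of promoters. The D-box letters TTACGTAA (0.119% of promoters) and the cAMP response element TGACGTCA (1.79%) were also searched for and matched no promoter of the 9 genes. No match in a window of this length says nothing of elements elsewhere in Clock, Dbp and Nr1d2.

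**Figure D1:**
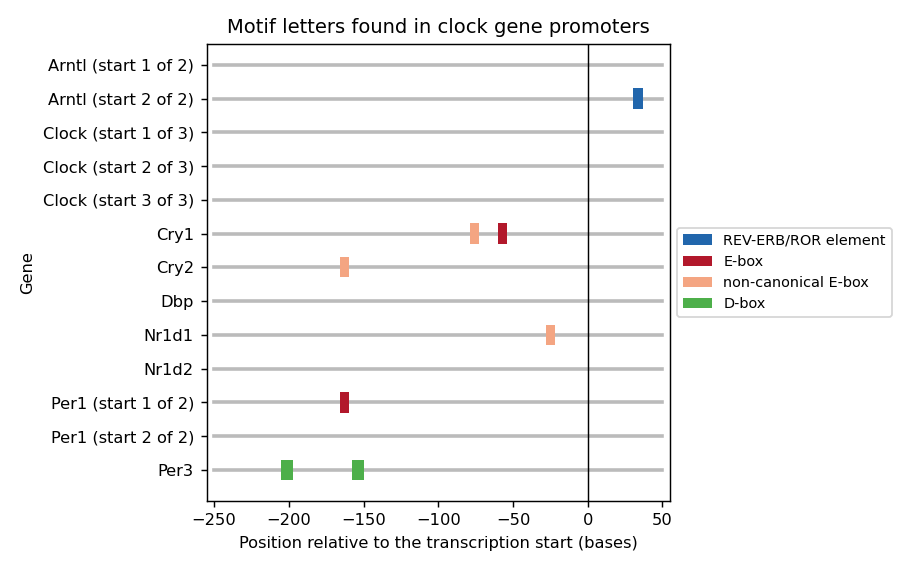
Positions of the searched letters in the 13 promoter windows of 9 clock genes; the x axis is the distance in bases from the transcription start, and each bar spans the letters of 1 match. Cry1 and Per3 have 2 matches each, and Clock, Dbp and Nr1d2 have none.

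Values are MAS5 signals, a linear intensity that the authors scaled to the same trimmed mean on each array. The brightest of 27 control probe sets for Bacillus subtilis RNA was at 78.4, and a signal at or under this value was taken as background. Of the 23 clock probe sets, 13 were above background on all 3 arrays, 7 on some and 3 on none. Signals of different probe sets are not compared with each other, because each has its own probes. Each gene was represented by its brightest probe set in a moderated linear model (limma) over 11089 genes, for which 9 of the 10 clock genes were bright enough and Per2 was not. WT has no replicate, so the model lends it the spread between the RASSF9-/- arrays, which also differ in date. Limma draws the spread of each gene towards that of genes of like intensity. The gene itself gives 1 degree of freedom and the other genes 5.31, so most of each standard error comes from other genes. With 1 array against 2 an exact permutation test cannot give a p below 0.333, and no such test was run.

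The gene disrupted by the insertion, Rassf9, was lower on both arrays labelled RASSF9-/-. Its brighter probe set read 478 on the WT array against 59.6 (in background) and 120.2 on RASSF9-/- arrays 1 and 2. That is at least 6.098-fold lower on array 1 and 3.98-fold lower on array 2. The other read 340.4 against 68.2 and 76.7, both in background. Where these probes lie relative to the removed intron part is not given in the sources used here. Among keratinocyte markers, 9 of 9 measured were above background on every array, with summed signals of 154796, 116106 and 146770 in the order WT, array 1, array 2. Of the 9, 1 was higher and 5 lower on both RASSF9-/- arrays (33.6% and 32.7% of all genes), and 3 lay on opposite sides of WT. The basal keratins Krt5 and Krt14 had log2 differences of -0.17 and 0.01. Only Trp63, a regulator of basal keratinocytes, was over 2-fold lower on both RASSF9-/- arrays. It read 3239, 1460 and 1543 in the same order (log2 difference -1.11, adjusted p = 0.689 from limma). The part of Trp63 in the clock values was not tested. All 6 melanocyte markers were also above background on every array, and their summed signal was between 24569 and 34602. Of 7 fibroblast markers, 6, 7 and 5 were above background in the same order of arrays, with sums of 1683, 1267 and 922. To the macrophage and Langerhans cell sums of 1458, 1656 and 2332, Csf1r alone gave 784, 792 and 1686. Of the 7 markers of these cells, 3, 5 and 3 were above background. Of 4 endothelial markers, 1 or 2 were, and the defining markers Pecam1 of endothelium and Cd207 of Langerhans cells were in background on every array. Other markers of these lists were above background on every array. Among them, Kdr of endothelium read 136, 157 and 211 in the same order, and Cd68 of macrophages 395, 351 and 407. The signal ratio of 3′ to 5′ control probe sets was between 0.832 and 0.939 for Gapdh and between 1.37 and 1.43 for beta-actin. As these are whole cultures, fewer cells of a type and less RNA per cell cannot be told apart, and the part of the other cell types in the clock values was not tested.

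No clock gene passed the test between RASSF9-/- and WT. Cry1 was higher and Arntl lower on both RASSF9-/- arrays, Nr1d2 was lower mainly on array 2, and Per1 and Nr1d1 had almost the same signal on all 3 arrays. At an adjusted p under 0.05 from limma 0 of 9 clock genes were called, where 0.0812% of all genes tested were, and the adjusted p = 1.00 for each. At an unadjusted p under 0.05 the count was also 0, against 5.55% of all genes. By direction alone, 1 of 9 was higher on both RASSF9-/- arrays (33.6% of all genes) and 4 were lower on both (32.7% of all genes), while 4 lay on opposite sides of WT. Under division of each array by its median the 4 became 2, since Cry2 and Per3 then lay on opposite sides of WT, and that scaling moved the median gap between the RASSF9-/- arrays over all genes from -0.07 to 0.21 on the log2 scale. None of the 9 was at least 2-fold from WT on both arrays, a size reached by 5.12% of all genes. The median log2 difference of the 9 was -0.20, against -0.01 over all genes tested.

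**Figure D2:**
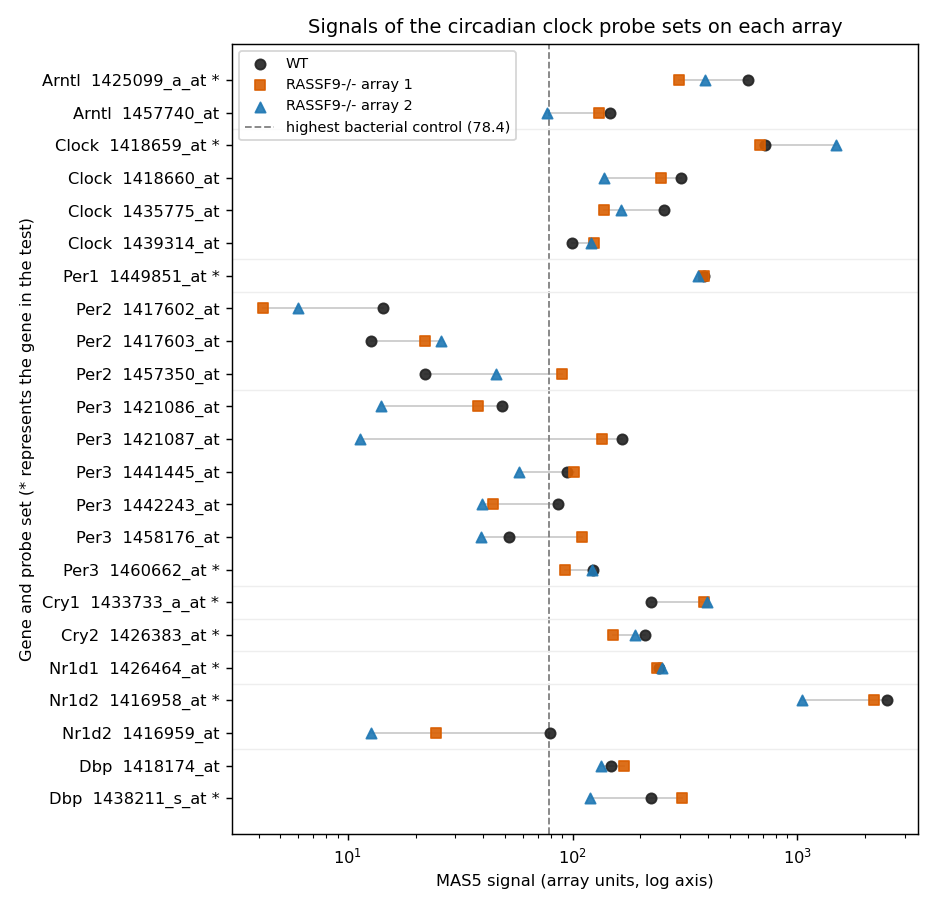
MAS5 signal (array units, log axis) of the 23 clock probe sets, 1 marker per array, a grey line from the lowest to the highest array, and the background value of 78.4 as a dashed line. Both RASSF9-/- markers lie to the right of WT for Cry1 and to the left for both Arntl probe sets, and all WT markers of Per2 lie under the dashed line.

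Among the activators, Arntl encodes the partner without which the loop stops. Its brighter probe set read 600.3 on the WT array against 298 and 387 on RASSF9-/- arrays 1 and 2. Both RASSF9-/- signals were lower, 2.02-fold on array 1, which shares the date of WT, and 1.55-fold on array 2. The log2 difference was -0.82 (standard error 0.48, 95% interval from -1.98 to 0.34, adjusted p = 1.00 from limma), and 7.35% of all genes had a difference this low or lower. The second Arntl probe set gave 146 for WT, with 131 on array 1 and 76.5 on array 2, the last of these in background. It was lower on both as well, but here array 2 was the farther from WT.

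Clock encodes the partner of BMAL1, and its 4 probe sets, all above background on every array, differed from each other in direction. The brightest read 718 on the WT array against 679 and 1482 on RASSF9-/- arrays 1 and 2, so that array 2 alone stood apart. Its log2 difference was 0.48 (standard error 0.55, 95% interval from -0.85 to 1.82, adjusted p = 1.00 from limma). A probe set that the annotation lists under the same transcript record gave 304, 246 and 138 in the same order, a log2 difference of -0.72 with array 2 lowest instead of highest. Another gave 254 for WT, with 137 on array 1 and 164 on array 2, or -0.76. The dimmest gave 99.4, 125 and 121, or 0.31. A direction for Clock therefore depends on the probe set, with 2 of them lower on both RASSF9-/- arrays, 1 higher on both and 1 going both ways.

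The repressor Cry1 had the largest difference upwards. Its probe set read 222 on the WT array against 382 and 394 on RASSF9-/- arrays 1 and 2. The RASSF9-/- arrays were 1.72-fold and 1.77-fold above WT and differed from each other by 0.04 on the log2 scale, a gap equalled or exceeded by 93.9% of all genes. The log2 difference was 0.81 (standard error 0.49, 95% interval from -0.37 to 1.98, adjusted p = 1.00 from limma). A difference this high or higher was found for 7.35% of all genes. The related repressor Cry2 read 210.2 for WT, with 151 on array 1 and 190 on array 2, lower on both with array 2 close to WT. Its log2 difference was -0.31 (95% interval from -1.67 to 1.05). Both RASSF9-/- arrays lay farther from WT than from each other for Cry1 among higher genes (1 of 9, against 17.4% of all genes) and for Arntl among lower genes (1 of 9, against 14.9%). Arntl no longer did so under division by the median, where its arrays were at -1.14 and -0.48.

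The period genes encode the partners of the cryptochromes in repression, and Per1 is in addition an acutely induced gene that follows hormones and growth stimuli. Per1 read 384 on the WT array against 385 and 362 on RASSF9-/- arrays 1 and 2. The 3 arrays were alike, with a log2 difference of -0.04, and its 95% interval ran from -1.18 to 1.10. Per2 was at or near background with each of its 3 probe sets. The brightest gave 22.1 for WT, with 89.8 on array 1 and 45.6 on array 2, of which 1 value was above background, and the highest value of the others was 26. No fold is given for Per2, and its level in these cultures could not be ordered between arrays.

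Per3 has 6 probe sets, and 1 of them was above background on all arrays. That probe set read 122.5 on the WT array against 92.7 and 122 on RASSF9-/- arrays 1 and 2, so that WT and array 2 nearly coincided. Its log2 difference was -0.20 (95% interval from -1.73 to 1.32). Another Per3 probe set read 165 for WT, with 135 on array 1 and 11.3 on array 2, which is at least 2.1-fold lower on array 2 because that value was in background. One more gave 94.4 for WT, with 102 on array 1 and 57.7 on array 2. The remaining 3 had no more than 1 array above background, with signals between 14 and 109.6. With signals in background set to 78.4, array 2 alone was the lowest in 2 of the 6 probe sets.

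Of the nuclear receptors, Nr1d2 was the one that stood apart. Its main probe set read 2509 on the WT array against 2189 and 1044 on RASSF9-/- arrays 1 and 2. Array 1, of the same date as WT, was close to WT, and array 2 was 2.40-fold lower. The log2 difference was -0.73 (standard error 0.51, 95% interval from -1.97 to 0.50, adjusted p = 1.00 from limma). Its second probe set had 78.9 for WT, just above background, and 24.6 and 12.6 on the RASSF9-/- arrays. When both were averaged the log2 difference of Nr1d2 was -1.45 (adjusted p = 0.773 from limma), a value that rests partly on the signals in background, with an unadjusted p = 0.0398 from limma. Nr1d1 read 242 for WT, with 237 on array 1 and 251 on array 2, alike on all arrays, with a log2 difference of 0.01 (95% interval from -1.24 to 1.27).

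Dbp, a D-box activator and one of the most strongly cycling output genes of the clock in many tissues, lay on opposite sides of WT. Its brighter probe set read 224 on the WT array against 307 and 119 on RASSF9-/- arrays 1 and 2. The log2 difference was -0.23 (95% interval from -1.96 to 1.51), whereas the arrays were at 0.46 and -0.91. The other probe set read 148 for WT, with 169 on array 1 and 133 on array 2, the same order with smaller gaps.

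**Figure D3:**
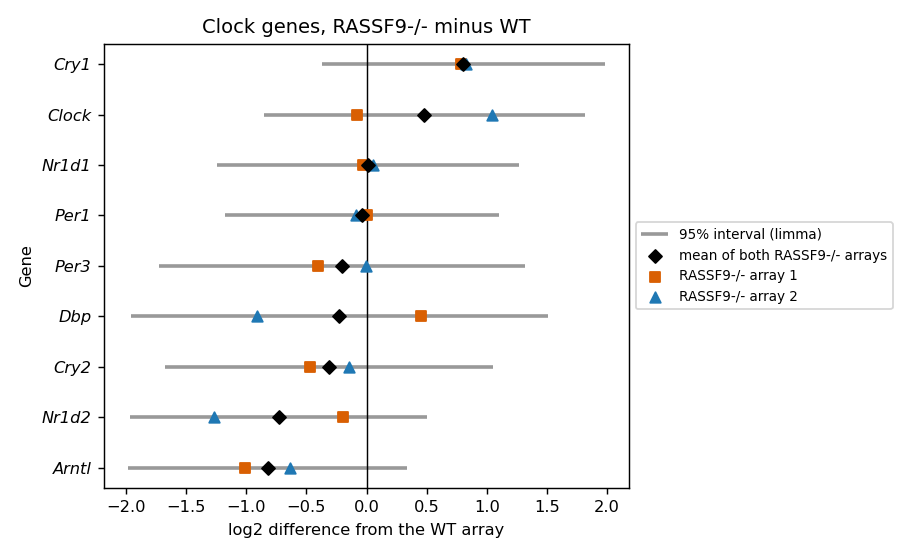
log2 difference of 9 clock genes from the WT array (x axis), with 1 marker for each RASSF9-/- array, a diamond at their mean and a grey bar for the 95% interval from limma. Every interval spans 0, and the array markers nearly coincide for Cry1 and lie farthest apart for Dbp.

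For 3 of the 9 clock genes the RASSF9-/- arrays differed from each other by at least 2-fold. Dbp was 2.58-fold and Nr1d2 2.10-fold lower on array 2 than on array 1 (2 of 9, against 8.63% of all genes), and the represented Clock probe set was higher on array 2 (1 of 9, against 5.03%). In all, 3 of 9 were lower on array 2, where 54.8% of all genes were. The median size of this gap was 0.38 over the 9 genes and also 0.38 over all genes. Under division by the median, 1 clock gene (Dbp) was at least 2-fold lower on array 2. The pair share a genotype and differ in array date, and the part of the date was not tested.

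The RASSF9-/- arrays were also compared in other genes of these loops. Of these genes 7 were bright enough for the test, and Npas2, Arntl2 and Rorb were too dim. All 7 were lower on RASSF9-/- array 2 than on array 1, where 54.8% of all genes were. Taken with the 9 clock genes, 10 of 16 (62.5%) were lower on array 2. With signals in background set to 78.4, 2 of the 7 (Nfil3 and Ciart) were lower by at least 2-fold, against 7.53% of all genes. Under division by the median 6 of 7 were lower (35.6% of all genes), as Tef then had a gap of 0.00044. Nfil3, a D-box repressor, had a signal of 768 for WT, 1059 for array 1 and 315 for array 2. Ciart, a repressor of BMAL1 and CLOCK, read 132 for WT, with 233 on array 1 and 65.8 on array 2, at least 2.969-fold lower on array 2 because the last value was in background. Hlf, a relative of Dbp, had 67.5, 150 and 69.3 in the same order, with array 1 alone above background, so that its gap is at least 1.92-fold. Hlf passed the filter only through array 1, so its place among the 7 lower genes follows in part from the filter. Bhlhe40, which competes for the E-box, had a signal of 11504 for WT, 11961 for array 1 and 7005 for array 2. Its relative Bhlhe41 had 204, 127 and 76.3 (in background), Tef had 877, 598 and 494, and Rora had 585, 279 and 177. The lists of these genes were drawn up with results of these arrays known, and this pattern was noticed after the values were seen, so it is given as a description without a test.

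**Figure D4:**
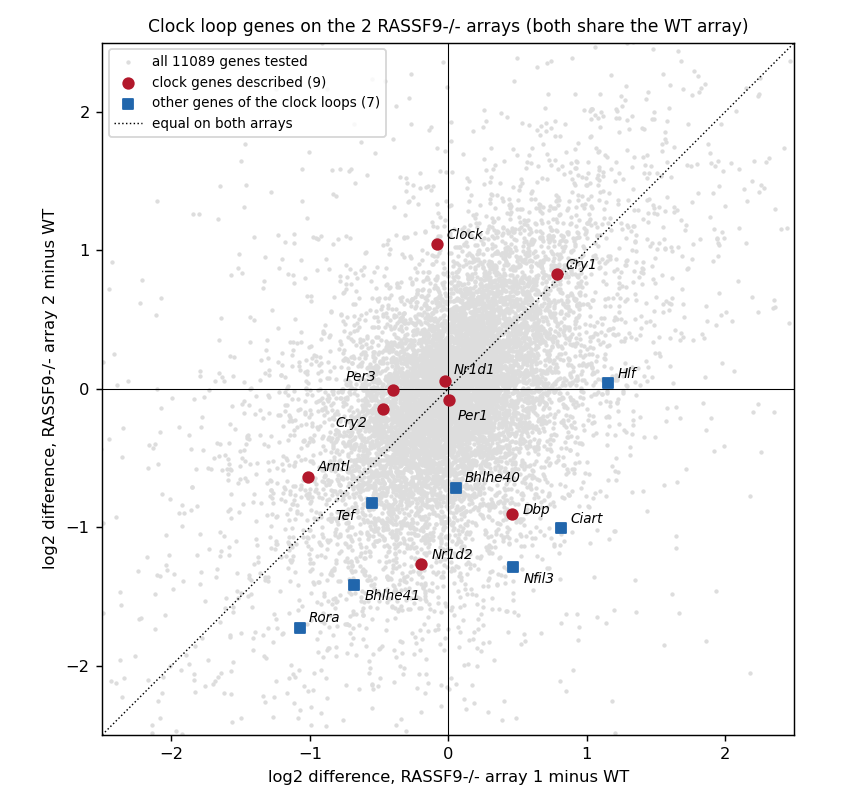
log2 difference from WT on RASSF9-/- array 1 (x axis) and array 2 (y axis) for 9 clock genes (circles), 7 other genes of the clock loops (squares) and all 11089 genes tested (grey), of which 253 lie beyond the axes. Both axes share the WT array. All 7 squares lie under the dotted line of equal differences (6 of 7 under division by the median), as do 54.8% of all genes. Cry1 lies close to that line.

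Against WT, 0 of the 7 other loop genes passed the test over all genes (0.0812% of all genes did). Of the 7, 3 were lower on both RASSF9-/- arrays (32.7% of all genes), and the median log2 difference of the 7 was -0.41. With signals in background set to 78.4, 0 were higher on both, since Hlf was in background for WT and on array 2. Rora, which encodes the activating receptor that competes with the REV-ERB proteins, was the 1 gene of the 7 at least 2-fold from WT on both arrays. Its log2 difference was -1.40 (standard error 0.54, adjusted p = 0.847 from limma). Counted over all 44 genes on the pathway lists outside the 10, 33 were tested, 7 were too dim and 4 had no probe set of 1 symbol. Of the 33, 0 passed the test. As measured, 9 were higher and 12 lower on both arrays, against 33.6% and 32.7% of all genes. At least 2-fold from WT on both arrays were 4, against 5.12% of all genes. With signals in background set to 78.4, these counts were 8, 12 and 3 (Rora, Egr1 and Egr2), and the shares of all genes under that setting are not given. The median of the 33 was -0.02.

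The list of enzymes that act on clock proteins held kinases and ubiquitin ligases, with the deubiquitinase Usp2 and the deacetylase Sirt1. It gave 8 tested genes of 11. Of these, 1 was higher and 3 lower on both arrays (33.6% and 32.7% of all genes), with a median of -0.02. Fbxw11, which marks PER proteins for degradation, read 9478 on the WT array against 9449 and 9314 on RASSF9-/- arrays 1 and 2, nearly equal throughout. Other genes of this list moved more. Btrc read 419, 404 and 217.5 in the same order, and Usp2 read 572, 228 and 980, on opposite sides of WT. Of the partner proteins, Timeless read 46 for WT, with 141 on array 1 and 133 on array 2. Both RASSF9-/- signals were above background and that of WT was not, which makes them at least 1.79-fold and 1.695-fold higher on arrays 1 and 2 (adjusted p = 0.892 from limma). Timeless passed the filter only through the RASSF9-/- arrays, so its test is not read as a result. Tipin, which binds Timeless, had 377, 624 and 1188, or a log2 difference of 1.19 (adjusted p = 0.934 from limma). Timeless and Tipin also act together at the DNA replication fork.

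Among genes that acutely drive Per1 or follow the same stimuli, 8 of 9 immediate early genes were tested. Of these, 3 were higher and 5 lower on both arrays (33.6% and 32.7% of all genes), and the median was -0.36. Egr1 read 2726 on the WT array against 964 and 803 on RASSF9-/- arrays 1 and 2, a log2 difference of -1.63 (standard error 0.38, adjusted p = 0.393 from limma). Egr2 had 637, 241 and 188, or -1.58 (adjusted p = 0.694 from limma). Both are transcription factors induced within minutes by growth factors, and both were lower on each array without passing the test. Of 6 glucocorticoid response genes, 5 were tested, with 1 higher and 1 lower on both arrays (33.6% and 32.7% of all genes) and a median of 0.07. The higher one, Fkbp5, read 133 for WT, 387 for array 1 and 235 for array 2. Its log2 difference was 1.18 (adjusted p = 0.988 from limma). The lower one was Sgk1, with a log2 difference of -0.43. Errfi1 had 2374.5, 2339 and 5524 in the same order, on opposite sides of WT. Zbtb16, too dim for the test, had 25.4 for WT in background, 165 for array 1 and 107 for array 2. The 4 clock output genes tested of 6, Wee1, Nampt, Klf9 and Tsc22d3, had a median of 0.19. Of these 4, 1 (Nampt) was higher on both arrays, against 33.6% of all genes.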

How the data were processed

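RNA of 1 WT and 2 RASSF9-/- keratinocyte cultures was hybridized to Affymetrix Mouse Genome arrays. The deposited values are MAS5 signals, an intensity on a linear scale for each probe set. On every array their mean is 500 once 2% of the values are trimmed from either end. The version of MAS5 is not given in the sources used here, and the GeneSpring step of the methods was left out. Median signals were 90.8, 99 and 81.7.

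Log2 signals were taken with no further normalization. Of 45037 probe sets that are not controls, 34945 have 1 gene symbol, 932 several and 9160 none. Those with a mean log2 signal at or above the 50th percentile (a signal of 82.7) were kept, and the brightest represents its gene. RASSF9-/- and WT were compared with lmFit and eBayes of limma 3.58.1 (R 4.3.3), using the intensity trend and a two-sided test with Benjamini-Hochberg adjustment over 11089 genes, 1 residual and 5.31 prior degrees of freedom. The fit was tested on simulated data. Those data gave WT the same spread as the RASSF9-/- arrays, so they cannot show whether the real WT array has it. Background is the highest of 27 Bacillus subtilis control probe sets. A fold is given as "at least" where a background signal was set to that limit.

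The clock genes, the gene and marker lists and the tests were chosen with earlier results of these data known. Genes named outside the 10 are those on the pathway lists with signals at least 2-fold from WT on both arrays, before background was set to its limit, and others chosen after their values were seen. The number of arrays limits the precision, and p-values measure only the spread between these samples. Alternatives were 2 normalizations, 2 filters, a pseudocount of 32, a background floor and other uses of probe sets. Further ones were limma without the trend, an ordinary t-test and leaving out each RASSF9-/- array. The methods name t-tests but do not say that they were used on the arrays.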

Additional observations from a re-analysis of the deposited data

How the results depend on the processing

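Under every alternative with an adjusted test, 0 clock genes were called. At an unadjusted p under 0.05 the ordinary t-test gave 1, Cry1, and the mean of probe sets under limma 1, Nr1d2. The spread in that t-test is the gap between the RASSF9-/- arrays alone, which was 0.04 on the log2 scale for Cry1. Limma without the trend, the ordinary t-test, both filters and the background floor left the log2 difference of every tested clock gene unchanged. Their values could therefore not turn. Of 78 values of single clock genes under the alternatives other than leaving out an array, these included, 73 kept their direction. The other 5 were Clock with the mean of its probe sets (-0.17) and with each of 2 probe sets on their own (-0.72 and -0.76), Dbp with its other probe set (0.017) and Per1 with quantile normalization (0.026). The cause was not tested. The lowest adjusted p over the alternatives was 0.773. The median of the clock genes, -0.20, was -0.19 with arrays divided by their median, -0.15 with quantile normalization, -0.16 with a pseudocount of 32, -0.12 without a filter (10 genes), -0.12 with the 75th percentile filter (2 genes, Clock and Nr1d2) and -0.14 with the mean of probe sets (8 genes, Per2 and Per3 being too dim). The count of clock genes higher on both arrays, 1, was 2 without a filter, where Per2 in background was added, 2 with quantile normalization, where Per1 was added, and 0 with the 75th percentile filter. The count lower on both, 4, was 2 with arrays divided by their median, 3 with quantile normalization, where Per3 lay on opposite sides of WT, and 1 with the 75th percentile filter. Without a filter the count at least 2-fold from WT on both was 1 in place of 0, from Per2 signals that lie in background for WT and on array 2 and show no such fold.

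Leaving out a RASSF9-/- array leaves a difference with no test. The median was then -0.0835 without array 1 and -0.0801 without array 2, the count of higher genes 3 and 3, that of lower genes 6 and 6, and that of genes at least 2-fold from WT 2 and 1. Shares of all genes are not given for these counts, so they are not read as a result. Without array 2 and without array 1, Clock was at -0.080 and 1.04, Dbp at 0.457 and -0.908, Nr1d1 at -0.026 and 0.055 and Per1 at 0.0045 and -0.0835, each turned without array 2. The differences ranged from -1.01 to -0.63 for Arntl and from 0.78 to 0.83 for Cry1. No paired analysis was possible because WT has 1 array, so the groups share fewer than 2 replicate numbers.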
